A study of Mus musculus with 8 samples.

Results

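The voltage-gated sodium channel alpha subunits are described here by how they divide the alpha-subunit RNA of Neuro2a cells, a mouse neuroblastoma line, after transfection with plasmids for CRISPR activation (CRISPRa) directed at Scn2a. The members are 7 genes, Scn1a, Scn2a, Scn3a, Scn4a, Scn7a, Scn8a and Scn9a, taken by name from a table of 55367 genes, and all 7 were found. The table holds 10 genes named as sodium channel alpha subunits, and the other 3 added between 3.46% and 5.14% of a library's length-scaled alpha-subunit RNA. Of these, Scn10a had no counts and Scn11a at most 4 in a library, so nearly all of it came from the remaining gene. Over all 10, the mean shares of Scn3a were 3.38% with CRISPRa and 2.69% in controls, and those of Scn4a 3.31% and 2.66%. Ranks and tiers below are therefore among the 7 members only. Cultures of the CRISPRa group received 750 ng of single guide RNA (sgRNA) plasmid and 750 ng of a plasmid for sadCas9-VP64, a catalytically inactive Staphylococcus aureus Cas9 fused to the transcriptional activator VP64. Control cultures received the sadCas9-VP64 plasmid without an sgRNA, in an amount that is not stated for them separately, so the guide and the additional plasmid cannot be told apart. The labels list 4 samples per group, described as preliminary data. Counts were analysed for 3 libraries per group. In the CRISPRa group these carry the numbers 2, 3 and 5, and in the no sgRNA group 2, 3 and 4. The labels do not say whether replicates came from separate cultures, so p-values measure the spread between these samples only.

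A sodium channel alpha subunit is a single long membrane protein of repeated domains that forms the sodium-conducting pore, senses voltage and carries the inactivation gate, while smaller beta subunits modify it. Neurons combine several alpha subunits. Scn1a (Nav1.1), Scn2a (Nav1.2), Scn3a (Nav1.3) and Scn8a (Nav1.6) are the subunits of the central nervous system, with Scn3a most abundant before birth and Scn2a and Scn8a concentrated at the axon initial segment. Scn9a (Nav1.7) is known from sensory and sympathetic neurons, Scn4a (Nav1.4) from skeletal muscle, and Scn7a encodes Nax, an atypical relative linked to the sensing of sodium concentration. Loss of SCN2A function in humans is linked to neurodevelopmental disorders, which is the setting named in the title of the series.

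All 7 genes are protein coding, and 5 of them lie within 1328 kb of chromosome 2 (65457118 to 66784914, GRCm38). In order along the chromosome these are Scn3a (65457118 to 65567627, minus strand), Scn2a (65620771 to 65767447, plus strand), Scn1a (66270778 to 66440840, minus), Scn9a (66480080 to 66634962, minus) and Scn7a (66673425 to 66784914, minus). Scn2a is the member of this cluster on the plus strand, and it is transcribed away from Scn3a, whose start lies 53.1 kb to its proximal side. Scn4a is on chromosome 11 (106318592 to 106353288, minus) and Scn8a on chromosome 15 (100869858 to 101045938, plus). Of the 50-base words in their annotated transcripts, 5.76% of those of Scn2a, 6.49% of Scn3a, 4.04% of Scn9a and 4.03% of Scn1a also occur in other genes, nearly all of them in each other. Scn2a shares 4.1% of its words with Scn3a, 2.36% with Scn1a, 2.33% with Scn9a and 0.00775% with Scn8a. Counts among the 4 similar chromosome 2 members can therefore be partly exchanged, and the treatment of such reads is not stated. Exons of Gm13629 on the opposite strand cover 1.41% of the Scn9a exon length, and whether counting used the strand is likewise not given.

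The RefSeq promoter table (GRCm38.p6) matched 6 of the 7 members, all but Scn3a, with 8 start sites. The 250 bases before a start are shown for both starts of Scn2a, the gene the activator is directed at, and for the first listed start of Scn9a and of Scn8a, the members that held most of the RNA. CG dinucleotides are in capitals, and each sequence runs 5′ to 3′ on the strand of its gene.
Scn2a, upstream start, chr2:65620519-65620768: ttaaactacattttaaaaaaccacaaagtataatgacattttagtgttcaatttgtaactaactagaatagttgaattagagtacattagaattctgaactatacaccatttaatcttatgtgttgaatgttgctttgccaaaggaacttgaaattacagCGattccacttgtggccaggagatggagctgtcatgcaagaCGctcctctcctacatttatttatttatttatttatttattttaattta
Scn2a, downstream start, chr2:65668436-65668685: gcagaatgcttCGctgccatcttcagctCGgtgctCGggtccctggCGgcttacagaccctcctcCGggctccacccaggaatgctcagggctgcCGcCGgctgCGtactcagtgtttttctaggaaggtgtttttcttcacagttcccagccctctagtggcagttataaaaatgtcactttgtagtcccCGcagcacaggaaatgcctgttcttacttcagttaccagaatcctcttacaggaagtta
Scn9a, chr2:66634963-66635212: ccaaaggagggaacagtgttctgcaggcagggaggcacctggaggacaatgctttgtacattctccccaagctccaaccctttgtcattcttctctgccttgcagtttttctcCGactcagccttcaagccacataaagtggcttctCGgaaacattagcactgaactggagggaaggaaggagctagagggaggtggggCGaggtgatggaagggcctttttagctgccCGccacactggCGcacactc
Scn8a, chr15:100870395-100870644: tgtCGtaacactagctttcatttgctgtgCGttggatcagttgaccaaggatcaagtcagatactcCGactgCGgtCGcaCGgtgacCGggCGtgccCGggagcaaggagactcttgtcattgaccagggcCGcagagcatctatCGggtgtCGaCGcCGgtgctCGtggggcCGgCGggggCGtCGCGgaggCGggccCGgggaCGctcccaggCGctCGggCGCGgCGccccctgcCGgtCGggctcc

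The windows of the Scn2a starts, which lie 47.9 kb apart, differ in base composition. The upstream window has 29.6% G and C with 2 CG dinucleotides, and the downstream window has 53.2% with 9. Of 32851 windows of this length in the table, 1.47% have as little G and C as the upstream Scn2a window, and the median is 52.4% with 6 CG dinucleotides. The window of the first listed Scn8a start is at the other end, with 68.0% G and C and 30 CG dinucleotides, a number reached by 5.94% of windows. A second listed Scn8a start, not shown, has 53.2% and 9, the values of the downstream Scn2a window. Scn9a has 54.4% and 5. The letters TATAAA, searched on both strands, occur in the downstream Scn2a window and in none of the other 3 windows shown, against 12.4% of all windows. Gene-level counts do not tell which start was used, and the guide's position was not used here.

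Total counts per library lay between 29739422 and 34248514. Genes with 1 to 10 counts had an even number in 73.6% to 75.1% of cases per library, against 50.6% to 52.6% of genes above 1000 counts, a pattern that counting both mates of a read pair would give. Whether mates were counted separately was not tested, and if so, independent fragments number fewer than the counts. Replicates 2 and 3 of each group were closer to each other than to the remaining library, with a chi-square per degree of freedom of 4.73 and 5.98 against 14.1 to 17.1. Neuroblastoma and neuron markers were present, 11 of 12 at 1 CPM (counts relative to the library total, adjusted by trimmed mean of M-values, TMM) or more in every library. Their summed level was 1675 to 1901 CPM with CRISPRa and 1889 to 2030 CPM in controls, and single markers moved in both directions. Phox2a (log2 difference -0.69, edgeR adjusted p = 0.00204) and Hand2 (-0.43, 0.000507) were called lower with CRISPRa. Chga (0.33, edgeR adjusted p = 0.0025), Ncam1 (0.24, 0.0116) and Tubb3 (0.20, 0.0486) were called higher. Of the 3 skeletal muscle markers, Myod1 had no counts in any library and the sum was at most 0.190 CPM. The summed fibroblast markers (3 genes, 1 of them, Pdgfra, at 1 CPM or more throughout) lay at 11.6 to 16.4 CPM with CRISPRa and 21.2 to 24.1 CPM in controls. An interferon response moved with the groups: 8 interferon-stimulated genes summed to 1275 to 1460 CPM with CRISPRa and 40.3 to 43.5 CPM in controls. The part of these markers in the results on sodium channels was not tested. In bulk RNA, more cells expressing a subunit and more RNA per cell cannot be told apart.

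The first question was which subunits make up the alpha-subunit RNA and where Scn2a stands. Counts were divided by the exon length that the table gives for each gene, and a member's share is its part of the sum over the 7. Scn8a and Scn9a together held between 84.0% and 86.3% of the sum with CRISPRa and between 86.4% and 88.9% in controls, and Scn2a was the third member in all 6 libraries.

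**Figure D1:**
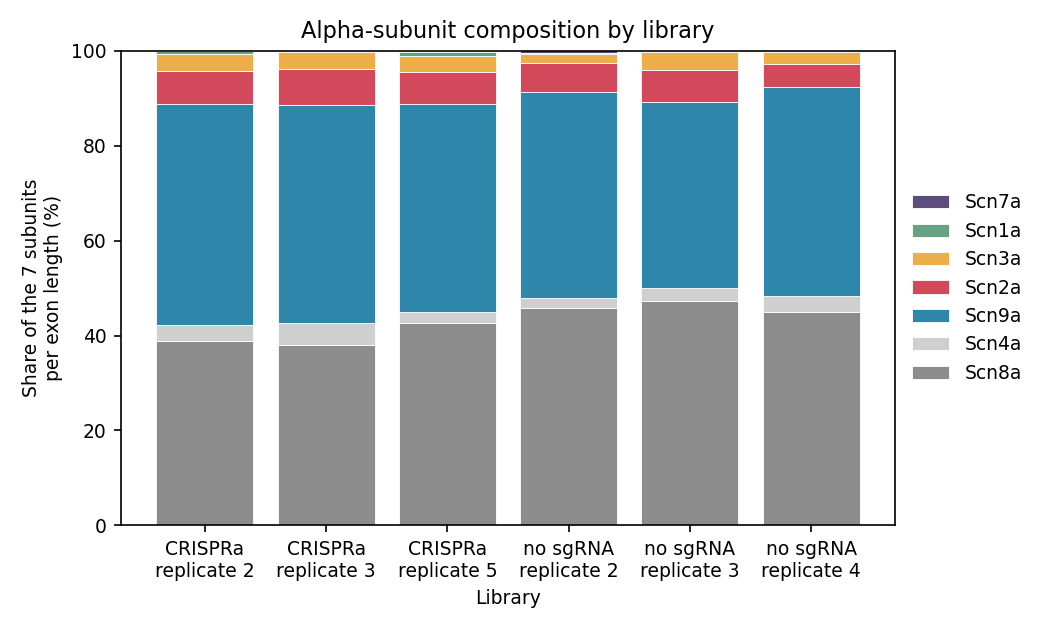
Share of each of the 7 alpha subunits in the sum of counts per exon length (vertical axis, percent), 1 stacked bar for each of the 6 libraries. Scn8a (bottom, grey) takes 37.9% to 42.6% of the CRISPRa bars and 45% to 47.3% of the no sgRNA bars, and Scn2a (red) is a narrow band of 4.85% to 7.46%.

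The Scn2a share was 7%, 7.46% and 6.88% in CRISPRa replicates 2, 3 and 5. In controls it was 6.22%, 6.72% and 4.85% in replicates 2, 3 and 4. Every CRISPRa library lay above every control, while the lowest control, replicate 4, stood apart from its group. The means were 7.11% ± 0.302 and 5.93% ± 0.968 (SD, n = 3), a difference of 1.18 percentage points. The exact two-sided permutation test gave p = 0.1, the smallest that 3 libraries against 3 allow, and 0.35 after Benjamini-Hochberg adjustment over the 7 shares. Without no sgRNA replicate 4 the difference was 0.641 points. As a plain share of the members' counts, Scn2a had 6.38% in CRISPRa replicate 5 (95% exact Clopper-Pearson interval 5.60% to 7.22%, 231 of 3623 counts) and 6.17% in no sgRNA replicate 3 (5.35% to 7.07%, 193 of 3130). These are the lowest CRISPRa and the highest control library, and their intervals, which cover counting error only, overlap over most of their width. If both mates of a pair were counted, which was not tested, the intervals would be wider.

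Scn8a, the subunit of mature nodes of Ranvier and initial segments, had the opposite difference in share. It held 38.8%, 37.9% and 42.6% with CRISPRa, against 45.7%, 47.3% and 45% in the controls. The groups did not overlap, and the means of 39.8% ± 2.49 and 46.0% ± 1.20 (SD, n = 3) differed by -6.20 points (exact permutation p = 0.1, adjusted 0.35). Its level was nearly equal in the groups, at 53.3 ± 0.726 CPM in CRISPRa libraries against 52.9 ± 5.41 CPM (SD, n = 3). The share thus differed while the level of the gene itself did not differ beyond the spread of the controls.

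Scn9a held 46.7%, 46.1% and 43.7% with CRISPRa and 43.3%, 39.1% and 43.9% in controls. CRISPRa replicate 5 fell just below no sgRNA replicate 4, so the groups overlapped, and the difference was 3.38 points (exact permutation p = 0.2, adjusted 0.467). Without no sgRNA replicate 3, the lowest control, it was 1.89 points. With all 10 alpha-subunit genes in the sum it was 3.42 points, and the groups did not overlap (exact permutation p = 0.1, the smallest possible). The shares of the minor members overlapped between the groups. Scn3a had 3.52% ± 0.165 with CRISPRa and 2.82% ± 0.996 in controls, and Scn4a had 3.45% ± 1.13 and 2.79% ± 0.600 (SD, n = 3). Scn1a lay between 0.123% and 0.894% with CRISPRa and between 0.0804% and 0.227% in the controls, and Scn7a at no more than 0.459% in any library.

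The sum from which the shares are taken was itself higher with CRISPRa. It was 8.60, 8.91 and 8.04 CPM per kilobase of exon with CRISPRa, against 7.78, 7.51 and 6.58 in controls. The groups did not overlap, and the ratio of means was 1.17 (exact permutation p = 0.1). Without no sgRNA replicate 4, the lowest control, the ratio was 1.11 and the groups still did not overlap (exact permutation p = 0.2). All 7 members together took between 0.00895% and 0.0122% of a library's counts, 2898 to 4069 counts, which sets the precision of every share.

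Levels per kilobase gave the 7 members an order of 3 tiers. Scn9a and Scn8a were the top tier, Scn2a, Scn3a and Scn4a lay several-fold lower, and Scn1a and Scn7a were at the limit of what these libraries can show.

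**Figure D2:**
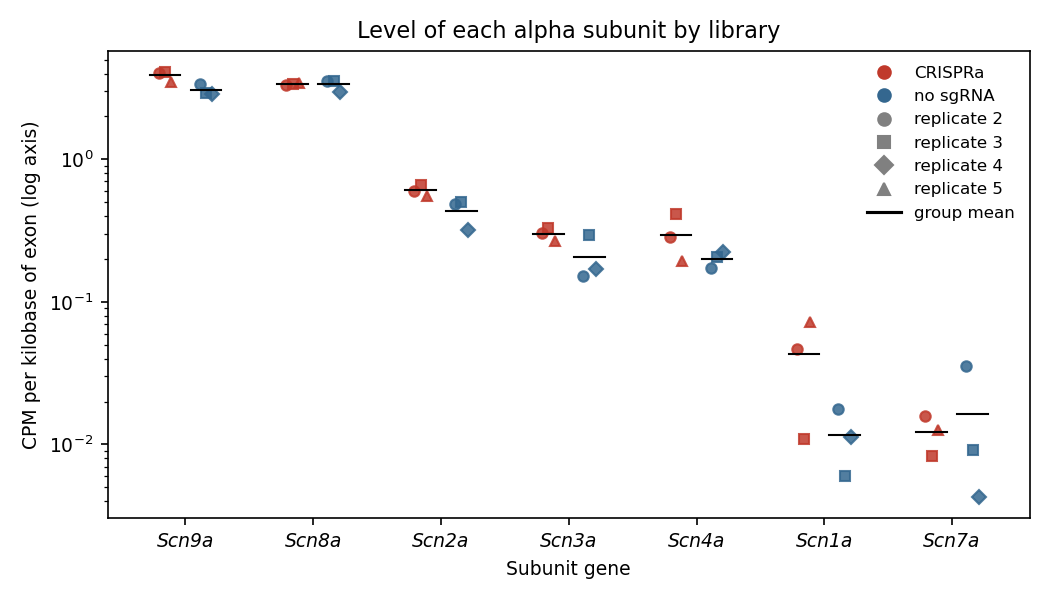
Level of each subunit as TMM-scaled CPM per kilobase of exon (vertical log axis) for 3 CRISPRa libraries (red) and 3 no sgRNA libraries (blue), with symbols for the replicate number and bars for group means. Scn9a and Scn8a lie between 2.89 and 4.1, Scn2a between 0.319 and 0.664, and Scn1a and Scn7a at or below 0.0719.

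The order at the top differed between the groups. With CRISPRa, Scn9a was at 4.02, 4.1 and 3.51 CPM per kilobase and Scn8a at 3.33, 3.38 and 3.43, so Scn9a was first in 3 of 3 libraries. In controls, Scn9a was at 3.36, 2.94 and 2.89 and Scn8a at 3.55, 3.55 and 2.96, so Scn8a was first in 3 of 3 libraries, although the ranges of the 2 genes overlapped. The log2 ratio of Scn9a to Scn8a, compared after this order had been seen, was 0.27, 0.28 and 0.04 with CRISPRa and -0.08, -0.27 and -0.03 in controls. It differed by 0.32, a 1.25-fold difference that does not depend on the lengths used. Since the pair was chosen for this order, no test is given. Which of the 2 genes is called first does depend on length, since Scn8a has the longer exon model (15766 against 12772 bases). By plain counts Scn8a was ahead on average in both groups.

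Scn2a came next, at 0.602, 0.664 and 0.553 CPM per kilobase with CRISPRa and 0.484, 0.505 and 0.319 in controls. Scn8a exceeded it 5.57-fold with CRISPRa and 7.69-fold in controls, by the group means, and the ranges were separate in both groups. Below it, Scn3a was lower by a factor of 2.02 and 2.12 in the same groups, again with separate ranges. Scn3a and Scn4a could not be ordered. Their mean levels were 0.300 and 0.297 CPM per kilobase with CRISPRa and 0.206 and 0.201 in controls, and which was higher varied from library to library. Scn1a was above Scn7a in 3 of 3 CRISPRa libraries, 1.32 to 5.71 times within a library, and in 1 of 3 controls, at few counts and with ranges that overlapped in both groups.

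The next question was whether Scn2a differed between the groups relative to the other subunits. Ratios within a library cancel its depth and scaling, and they were formed with the 4 members that had at least 10 counts in every library and with the sum of the other 6. Of the 5 ratios, 2 did not overlap between the groups, Scn2a to Scn8a and Scn2a to the sum.

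**Figure D3:**
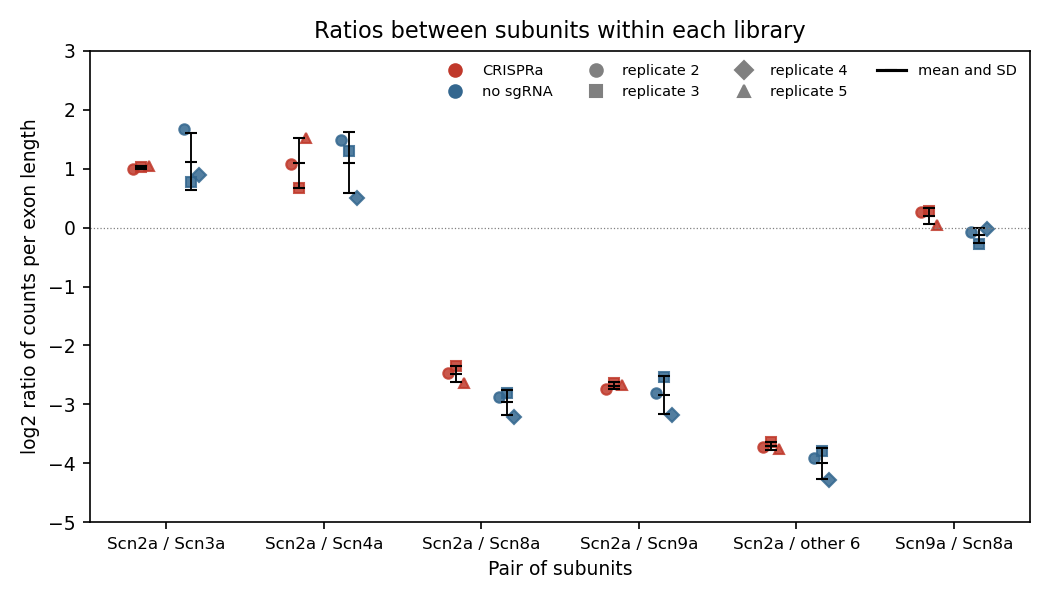
log2 ratio of counts per exon length between pairs of subunits (vertical axis) in 3 CRISPRa libraries (red) and 3 no sgRNA libraries (blue), with black bars for mean and SD. The groups separate for Scn2a over Scn8a (means -2.48 and -2.97), for Scn2a over the other 6 (-3.71 and -4.00) and for Scn9a over Scn8a (0.19 and -0.13), and they overlap for the remaining pairs.

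The log2 ratio of Scn2a to Scn8a was -2.47, -2.35 and -2.63 with CRISPRa and -2.88, -2.81 and -3.21 in controls. It was higher in 3 of 3 CRISPRa libraries than in any control, by 0.49 on average, or 1.40-fold (exact permutation p = 0.1, adjusted 0.25 over the 5 ratios). Without no sgRNA replicate 4 that difference was 0.36. Against the sum of the other 6 the difference was 0.29, or 1.22-fold, with the same p-values, and without no sgRNA replicate 4 it was 0.15. Against Scn9a, Scn3a and Scn4a, members with a higher mean with CRISPRa, the groups overlapped over all 6 libraries. The difference was 0.16 against Scn9a (exact permutation p = 0.6), -0.10 against Scn3a (p = 1) and 0.999-fold against Scn4a (p = 1). The ratio to Scn9a differed by -0.01 without no sgRNA replicate 4. It differed by 0.31 without no sgRNA replicate 3, its highest control, and the groups then no longer overlapped. The ratio to Scn3a was 0.99, 1.02 and 1.04 with CRISPRa but 1.67, 0.78 and 0.90 in controls, so the controls spread 1.12 ± 0.48 (SD, n = 3) around a similar value. Without no sgRNA replicate 2, the highest of these, the difference was 0.18 and the groups did not overlap. For Scn9a and for Scn3a, the library left out was the one that had made the groups overlap, so no test is given.

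In the test of every gene, Scn9a was the 1 member that passed. Of the 7 members, 5 passed the filter on low counts, and of these 1 had an adjusted p under 0.05 and is called changed, against 18.7% of all tested genes (9.47% called higher). Scn2a, Scn3a, Scn4a and Scn9a had positive log2 fold changes. Scn8a, at 0.01 (SE 0.08), was near 0 and turned negative in 5 of 14 alternative fits, so its sign carries no weight. The median of the 5 was 0.48, beside a median of -0.00709 over all tested genes. The libraries did not overlap for 2 of the 5, Scn2a and Scn9a, against 36.4% of all tested genes, and both were above the controls, as were 17.7% of all. Scn9a had 1767, 1711 and 1456 counts with CRISPRa and 1311, 1115 and 1168 in controls. It rose 1.27-fold (log2 fold change 0.34, SE 0.09, edgeR quasi-likelihood test, Benjamini-Hochberg adjusted p = 0.0159). Leaving out CRISPRa replicate 2 or 3, or no sgRNA replicate 3 or 4, took its adjusted p to between 0.0540 and 0.0744.

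For Scn2a itself the fitted log2 difference was 0.48 (SE 0.19, adjusted p = 0.0899 by edgeR), which did not pass. Without no sgRNA replicate 4, which had 130 Scn2a counts against 190 and 193 in the other controls, the value was 0.29 (edgeR adjusted p = 0.277). The estimates of the minor members were as large and less certain. Scn3a had 133, 136 and 111 counts with CRISPRa and 59, 111 and 69 in controls, a fitted log2 difference of 0.55 (SE 0.27, adjusted p = 0.180 by edgeR). Leaving out no sgRNA replicate 3, the highest control, gave 0.89 (edgeR adjusted p = 0.0461), while leaving out replicate 2 gave 0.37 (edgeR adjusted p = 0.41) and replicate 4 gave 0.43 (edgeR adjusted p = 0.377). Scn4a had 69, 95 and 44 counts against 37, 43 and 50, and its estimate of 0.56 (log2, SE 0.34, adjusted p = 0.289 by edgeR) rests on overlapping groups and ran from 0.26 to 0.80 when 1 library was left out. Scn8a, at 0.01 (SE 0.08, edgeR adjusted p = 0.946), had the smallest estimate of the tested members.

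Scn1a and Scn7a did not pass the filter. Scn1a had 18, 4 and 26 counts with CRISPRa and 6, 2 and 4 in controls. CRISPRa replicates 2 and 5 were above every control, and replicate 3 was not. Scn7a had 4, 2 and 3 counts against 8, 2 and 1. Scn1a shares 2.68% of its words with Scn2a and 2.53% with Scn3a, so its few counts can include reads of those genes.

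The authors' deposited table covers all 8 samples and keeps the same tiers of members. From its mean normalised counts divided by exon length, Scn9a takes 43.8%, Scn8a 42.6%, Scn2a 6.57%, Scn4a 3.34%, Scn3a 3.29%, Scn1a 0.237% and Scn7a 0.148%. In the authors' deposited table the log2 fold change is 0.62 (SE 0.166) for Scn2a, 0.56 (SE 0.266) for Scn4a, 0.33 (SE 0.248) for Scn3a, 0.29 (SE 0.0870) for Scn9a and -0.000136 (SE 0.0725) for Scn8a. Scn1a, at 1.45 (SE 0.841), and Scn7a, at -0.11 (SE 1.24), have no adjusted p there. Of the 5 members with an adjusted p in the authors' deposited table, 2 are under 0.05, Scn2a at 0.00138 and Scn9a at 0.00516, against 28.6% of its genes. The 6 libraries analysed here are among those 8 samples, so these values are not independent of the ones above.

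Position on the chromosome was not used to choose the members. The share of the chromosome 2 members is by construction what Scn8a and Scn4a leave of the sum. It therefore largely restates the Scn8a difference of -6.20 points given above and is not a separate result on position. Scn1a, Scn2a, Scn3a, Scn7a and Scn9a together held 57.9%, 57.4% and 55.0% with CRISPRa and 52.1%, 49.96% and 51.6% in controls. The groups did not overlap, at means of 56.8% ± 1.57 and 51.2% ± 1.13 (SD, n = 3). The difference was 5.54 percentage points (exact permutation p = 0.1, the smallest possible). Scn9a supplied most of this share, and Scn8a most of the remainder. The difference lay between 4.91 and 6.44 points whichever library was left out. The span of these genes holds 20 genes of the table, of which 6 were tested, namely Scn3a, Scn2a, Csrnp3, Galnt3, Ttc21b and Scn9a. All 6 had positive log2 fold changes with a median of 0.48, beside -0.00709 over all tested genes. Of the 6, 3 were called higher, Csrnp3, Galnt3 and Scn9a, against 9.47% of all tested genes. Scn2a, Scn3a and Scn9a are members already described above. Only Csrnp3, Galnt3 and Ttc21b are additional, and these were named after their values were seen. The Csrnp3 call was lost without CRISPRa replicate 5, no sgRNA replicate 3 or no sgRNA replicate 4 (edgeR adjusted p from 0.0572 to 0.0778). It was also lost with the replicate block (0.34, edgeR adjusted p = 0.0574), on the same 4 libraries without the block (0.33, edgeR adjusted p = 0.0989) and with the block and the gene-length trend removed (0.28, edgeR adjusted p = 0.119). Galnt3 kept its call in each of these fits. Of the members on other chromosomes, Scn4a had an estimate of 0.56 (SE 0.34) and Scn8a one of 0.01 (SE 0.08). The part of position in these values was not tested.

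**Figure D4:**
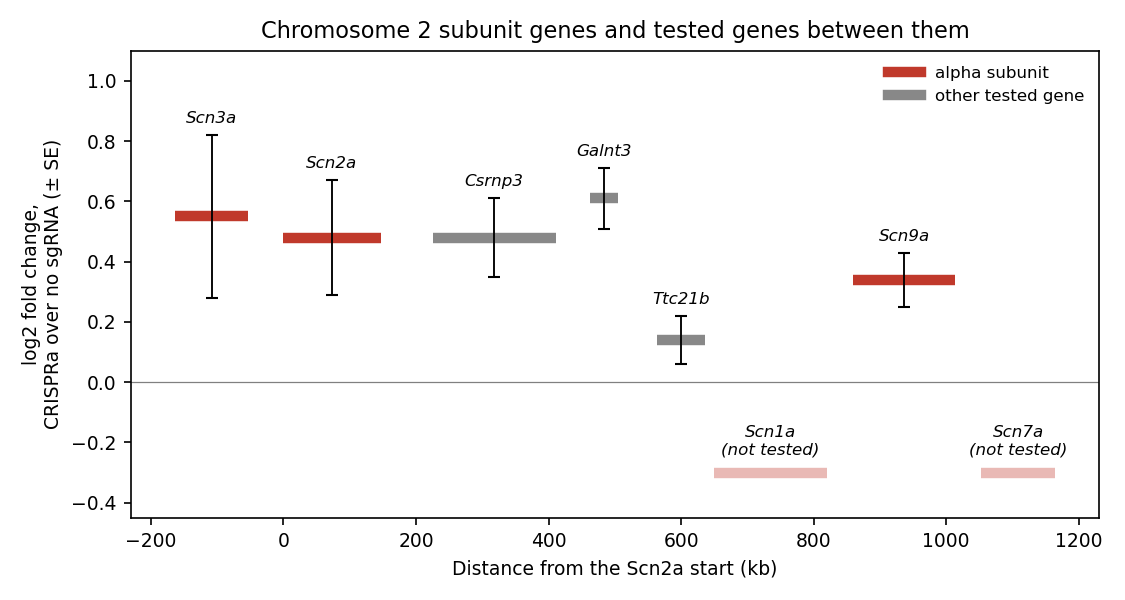
Fitted log2 fold change of CRISPRa over no sgRNA (vertical axis, bars for SE) against distance from the Scn2a start in kb, with each gene drawn at its length. Alpha subunits are red, other tested genes grey, and Scn1a and Scn7a are drawn pale below 0 because they were not tested. Values run from 0.14 for Ttc21b to 0.61 for Galnt3.

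Genes that work with the alpha subunits were taken from a list of 17, holding the beta subunits, the remaining neuronal alpha subunits Scn10a and Scn11a, ankyrin and spectrin anchors, fibroblast growth factor homologous factors, ubiquitin ligases and other partners. Of these 8 were tested and 1 was called changed, against 18.7% of all tested genes. It was Fgf11, which was lower, as were 9.25% of all tested genes. The median log2 fold change of the 8 was 0.03. Fgf11 encodes a homologous factor, a family of intracellular proteins that bind the tail of sodium channels. It had 746, 681 and 331 counts with CRISPRa and 1011, 975 and 1425 in controls. Its log2 fold change was -1.07 (SE 0.21, edgeR adjusted p = 0.00232). Ank3, which encodes ankyrin G, the anchor of these channels at the initial segment, was at 94.4 ± 15.0 and 92.6 ± 5.02 CPM (SD, n = 3), and Scn3b was at 36.3 ± 5.05 and 35.7 ± 3.14 CPM.

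The genes whose level followed Scn2a most closely over the 6 libraries were Sh3pxd2a, Sec16a, Aldh3a2, Zfhx2 and Ccdc28a. Their Pearson correlations with Scn2a in log2 CPM were 0.9972, 0.9961, 0.9947, 0.9931 and 0.9931, the highest of 12857 genes compared, which are descriptions over 6 libraries that share the group difference. Among the members the correlation was 0.83 for Scn9a, 0.75 for Scn3a, 0.67 for Scn8a and 0.50 for Scn4a. After each group's mean was subtracted, Scn8a was at 0.91, Scn9a at 0.56, Scn3a at 0.48 and Scn4a at 0.11, and the closest genes were Neurl1a, Ccdc28a, 2900026A02Rik, Klf7 and Sh3pxd2a (0.9984 to 0.9949). No sgRNA replicate 4 was the lowest of the 6 libraries for both Scn2a and Scn8a.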

How the data were processed

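Poly(A)-enriched RNA of 6 libraries, 3 per group, was analysed from whole-number counts per gene that the authors deposited without normalisation. STAR 2.5.1b, featureCounts, DESeq2, R 4.1.2 and the build mm10 are named per the submitters' processing notes, and the annotation, strandedness and treatment of mates and shared reads are not given in the sources used here. A second deposited table holds the authors' comparison of 8 samples, per the file headers with a signal (mean normalised count), log2 fold changes, a Wald score and p-values. Its sign was read as CRISPRa over no sgRNA, which its column headers do not state. Spans of all 7 members equal those of GENCODE M21 (GRCm38).

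Groups came from sample titles. Shares are counts per exon length over the sum of the 7 members. Shares, ratios and totals were compared by exact two-sided permutation of libraries. All genes were tested with edgeR 4.0.16 in R 4.3.3 (filterByExpr, TMM, quasi-likelihood F test, no covariate), with Benjamini-Hochberg adjustment over 15117 genes, a threshold of 0.05, and SE taken as the log2 fold change over the square root of F. The edgeR script was tested on simulated data. Members and lists were chosen with earlier results of these data known. Named genes are the members, partners that passed or had the largest or smallest estimates, and the 5 genes most correlated with Scn2a among those with a mean of at least 1 CPM (prior count 2), with and without group means. Values of some genes that the rule names are not reported here, while counts over lists include them. Galnt3, Csrnp3, Ttc21b, Ank3 and Scn3b were named after their values were seen. Alternatives were RLE or library-size scaling, no filter, DESeq2 1.42.0, correction for each library's trend with gene length, other lengths and denominators, a replicate block and leaving out each library.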

Additional observations from a re-analysis of the deposited data

How the results depend on the processing

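None of 14 alternative fits took Scn2a past the adjusted threshold of 0.05, with log2 fold changes from 0.29 to 0.59 and adjusted p-values from 0.0542 (no filter) to 0.277 (without no sgRNA replicate 4). The Scn8a estimate, near 0, changed sign with the gene-length trend removed (-0.10), on the 4 libraries numbered 2 and 3 with the replicate block (-0.08) and without it (-0.08), with the block and trend removal together (-0.16), and without no sgRNA replicate 4 (-0.07); the cause was not tested. The number of members called was 1 in each of the 8 other fits, and 0 to 1 where 1 library was left out. In the fits at 0, 1 or 2 members had an unadjusted p under 0.05, and without no sgRNA replicate 3 the called member was Scn3a in place of Scn9a. The number of partners called was 2, with Fgf11 among them, with no filter, with the gene-length trend removed, with the replicate block alone or with trend removal, and on the same 4 libraries unblocked. Leaving out 1 library gave 1 to 2.

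Under other lengths, other denominators and each library left out, shares, ratios and totals moved by less than 1 pooled SD of the groups (the root of the mean of their variances). Some differences changed sign within that: without no sgRNA replicate 2, that in the Scn2a to Scn3a log2 ratio became 0.18 and that in the Scn7a share 0.051 points; without no sgRNA replicate 4, that in the Scn2a to Scn9a ratio became -0.01; and that in the Scn2a to Scn4a ratio ran from -0.30 to 0.20 with 1 library left out. Scn2a ranked 3 of 7 under each length used. The Scn2a share difference was 1.20 points by plain counts, 1.30 by longest annotated transcript and 1.16 over every alpha-subunit gene of the table. Leaving out 1 library gave 0.641 to 1.58. As within-number differences over replicates 2 and 3 (replicate block), it was 0.756 points, the log2 ratio to the other 6 was 0.17, that to Scn9a -0.01 and that to Scn4a -0.51, while the chromosome 2 share was 6.63 points and the ratio of totals 1.15. The replicate block put the Scn2a difference at 0.36 (log2, edgeR adjusted p = 0.161), and the same libraries without it 0.36 (adjusted p = 0.172). The numbers do not pair the samples by any label, and the difference between replicates 2 and 3 had a correlation of 0.0045 between the groups across 15117 genes. At 2898 to 4069 member counts per library, the 3 minor tested members hold at most 279 counts each, which limits what their shares can show.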
